A study of Homo sapiens with 6 samples.

Results

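Anoctamins, also called TMEM16 proteins, are a family of membrane proteins. The members described here were the 10 genes named ANO1 to ANO10. With a second copy of ANO4 they made up 11 of the 38648 genes and gene copies listed for each library. The family was chosen by the ANO2 counts, which were lower in irradiated HK-2 cells that overexpressed PRDM16 than in irradiated control cells. The ANO2 values in that comparison are therefore given as a description, without a test, and the other 9 members were taken along by name.

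The data comprised 6 bulk RNA-seq libraries from HK-2, a human cell line immortalized from proximal tubular epithelium. All cells carried a lentivirus and all received a single X-ray dose of 8 Gy, with harvest on day 7, so no library held unirradiated or virus-free cells. In IR+NC-LV (n = 3) the lentivirus was the negative control, and in IR+PR-LV (n = 3) it carried PRDM16, a zinc finger regulator of transcription. The labels number the libraries 1 to 3 within each group without saying that they came from separate cultures, and p-values then measure only the spread between these libraries, which may be technical. Both groups came from 1 cell line, selected after infection, and each library is the average over many cells, so fewer cells with a transcript and less of it per cell cannot be told apart.

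Anoctamins share a fold of membrane-spanning helices and form pairs, and most of those studied are opened or activated by calcium inside the cell. ANO1 and ANO2 are calcium-activated chloride channels, ANO1 in secretory epithelia and pacemaker cells of the gut and ANO2 in olfactory sensory neurons and photoreceptors. ANO6 and several others are phospholipid scramblases, which move lipids such as phosphatidylserine between the inner and outer leaflets of a membrane, while ANO8 and ANO10 act largely at membranes inside the cell.

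The total count per library lay between 13407074 and 28540041, and a count of 3 in a library corresponded to 0.105 to 0.224 CPM (counts scaled to a common library total). PRDM16 itself had 2, 0 and 1 counts in IR+NC-LV replicates 1 to 3 against 14, 10 and 8 in IR+PR-LV. The groups did not overlap, which is the order the labels give, although the counts were low. Summed over each group, PRDM16 was 8.51-fold higher in IR+PR-LV (exact 95% binomial interval 2.66 to 43.4, counting error only). The summed level of 5 epithelial markers was 1968 to 2051 TPM (a level per exon length, scaled to a common total) in IR+NC-LV against 1949 to 2424 TPM in IR+PR-LV. Most of it came from the abundant keratins KRT8, KRT18 and KRT19. EPCAM was at 49.9 TPM in IR+NC-LV against 56.8 TPM in IR+PR-LV. CDH1, the last of the 5, was low, at 0.343 TPM against 0.496 TPM. Of 7 proximal tubule markers, 3 (AQP1, GGT1 and MME) reached a mean of 1 TPM, and LRP2, which encodes megalin, the endocytic receptor of that segment, had 3 counts in all 6 libraries.

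Irradiated HK-2 cells expressed 1 anoctamin at a high level, 1 at a moderate level and 4 at low levels, and the other 4 were near the detection limit. ANO6 had a mean of 133 TPM over the 6 libraries, ANO10 of 31.0 TPM, ANO9 of 6.17 TPM, ANO8 of 5.44 TPM, ANO7 of 2.34 TPM and ANO2 of 1.12 TPM. ANO4, ANO5, ANO1 and ANO3 followed at 0.0806, 0.0459, 0.0131 and 0.0077 TPM. In this order the ranges over the 6 libraries were apart between neighbours from ANO6 to ANO10, from ANO10 to ANO9, from ANO8 to ANO7, from ANO7 to ANO2 and from ANO2 to ANO4. The ranges of ANO9 and ANO8 overlapped, as did those of each neighbouring pair among ANO4, ANO5, ANO1 and ANO3. Among the 28831 genes with any count, ANO6 ranked 1496 and ANO10 ranked 5426 by mean TPM, while ANO2 ranked 14423, in the middle of the list.

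**Figure D1:**
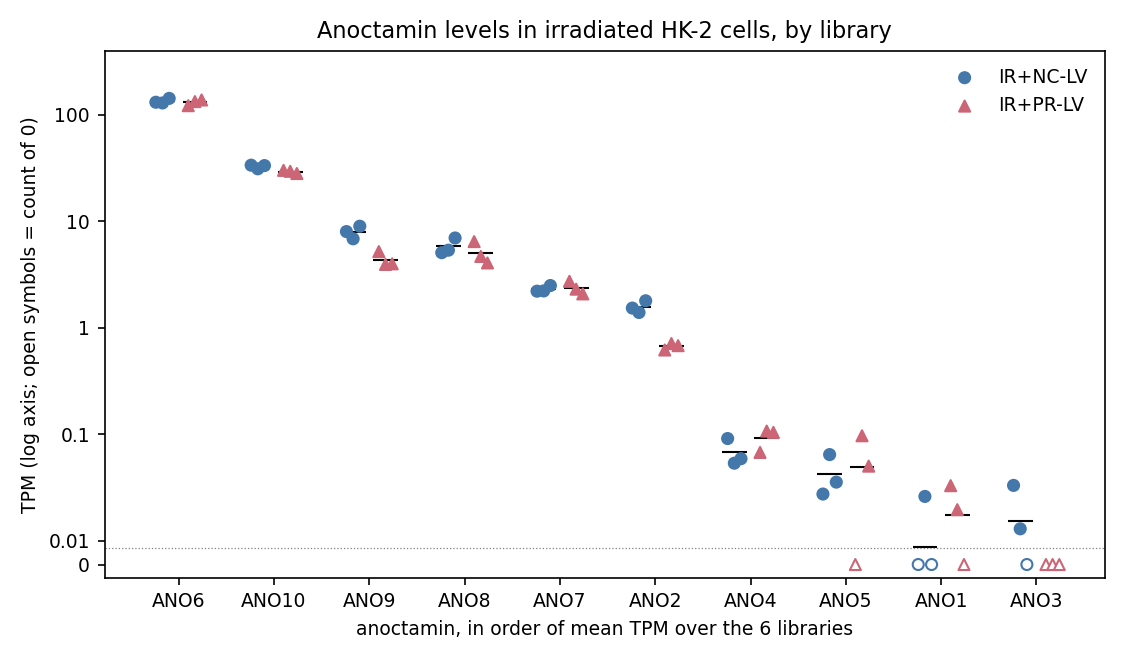
Level of each anoctamin in each library in TPM on a log axis, with IR+NC-LV as circles, IR+PR-LV as triangles, the mean of the 3 libraries of a group as a short line and a count of 0 as an open symbol. ANO6 lay above 120 TPM in all 6 libraries, 5 members lay between 0.620 and 33.7 TPM, and ANO4, ANO5, ANO1 and ANO3 stayed at or below 0.107 TPM.

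ANO6 made up most of the family's transcripts. It held 72.2%, 73.3% and 72.6% of the summed anoctamin TPM in IR+NC-LV replicates 1 to 3 against 72.9%, 76.3% and 77.9% in IR+PR-LV. ANO2 held 0.843%, 0.790% and 0.914% in IR+NC-LV against 0.371%, 0.408% and 0.384% in IR+PR-LV. The plot of levels by library shows the same spacing, with ANO6 on its own at the top and ANO2 the lowest of the members that were clearly detected. The summed TPM of the family without ANO6, of which ANO10 was the greater part, was 50.7, 47.2 and 53.8 in IR+NC-LV against 45.2, 41.4 and 39.1 in IR+PR-LV, so that the groups did not overlap. This sum includes ANO2 and was not tested. Of all single genes tested, 9.54% were likewise apart in CPM with IR+PR-LV lower.

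Among the chloride channels of the family, ANO2 was the one clearly detected. The gene lies on the minus strand at chr12:5560241-5948790 (hg38), and its listed exons cover 13266 bases. It had 105, 122 and 95 counts in IR+NC-LV replicates 1 to 3 against 43, 83 and 51 counts in IR+PR-LV. After normalization for library size by the TMM method these were 6.26, 5.79 and 6.84 CPM in IR+NC-LV against 2.56, 2.97 and 2.77 CPM in IR+PR-LV. All 3 IR+PR-LV libraries lay below all 3 IR+NC-LV libraries, with a gap between the groups wider than the spread within either. The mean was 6.30 ± 0.523 CPM (SD, n = 3) in IR+NC-LV against 2.77 ± 0.204 CPM (SD, n = 3) in IR+PR-LV. The log2 fold change was -1.18 with a standard error of 0.15. Per length, ANO2 had 1.53, 1.39 and 1.80 TPM in IR+NC-LV against 0.620, 0.712 and 0.681 TPM in IR+PR-LV. The coefficient of variation between libraries of a group, 8.31% in IR+NC-LV against 7.36% in IR+PR-LV, was below the 9.70% and 13.5% that counting error alone gives at these counts. The test through which ANO2 was chosen favours a wide gap and a small spread, so both are a description only.

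The family was chosen through the edgeR threshold, an adjusted p under 0.05, which 10 of 15340 genes tested passed (0.0652%), 7 of them lower in IR+PR-LV (0.0456%). ANO2 was the one of the 10 nearest to the threshold, which describes the choice of the family and is not a result. Its log2 fold change was -1.18, and that of ANO9, which did not pass, was -0.82. In the plot of all genes tested, both lie below the bulk of genes of a like level, and ANO10, ANO8, ANO7 and ANO6 lie within it.

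**Figure D2:**
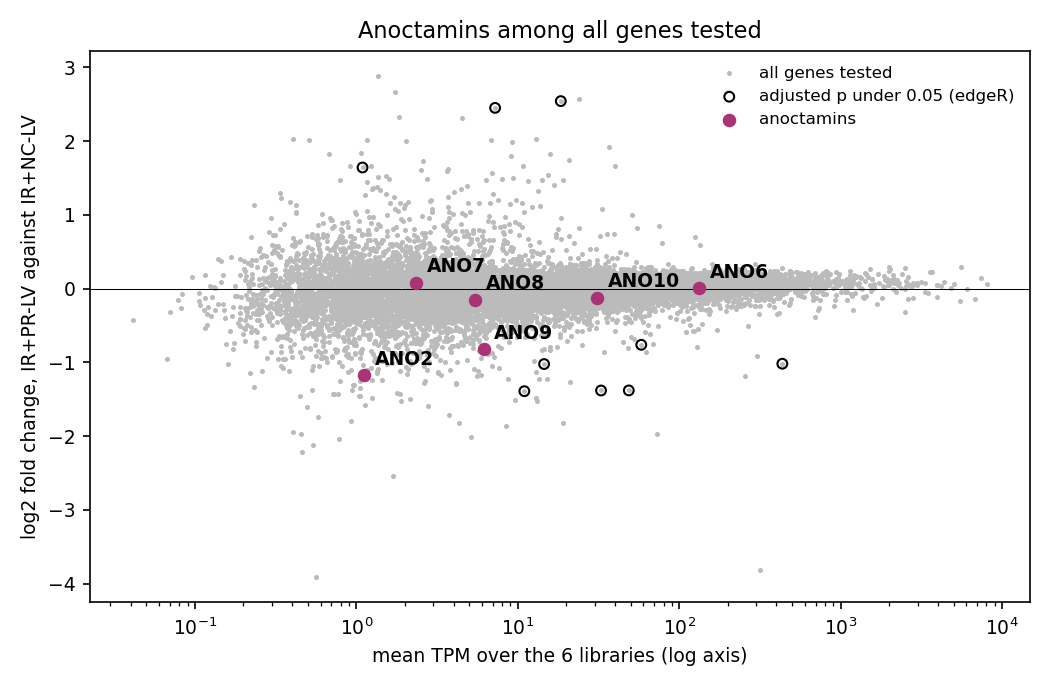
Log2 fold change of IR+PR-LV against IR+NC-LV (vertical axis) against the mean TPM over the 6 libraries (horizontal log axis) for the 15340 genes tested, with the 6 tested anoctamins as filled points and genes with an adjusted p under 0.05 ringed (the ring of ANO2 is under its point). ANO2 at -1.18 and ANO9 at -0.82 are the lowest of the 6, and ANO6 lies at 0 to 2 decimals.

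The RefSeq annotation gives ANO2 more than 1 transcription start, and the windows around 2 of them are shown because they differ in composition while the deposited counts join the transcripts of both. Each runs 5′ to 3′ on the minus strand from 250 bases before the start to 50 after it (GRCh38.p14), with every CpG in capitals. The first is chr12:5946183-5946482 and the second is chr12:5945210-5945509.

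ANO2 start at 5946232: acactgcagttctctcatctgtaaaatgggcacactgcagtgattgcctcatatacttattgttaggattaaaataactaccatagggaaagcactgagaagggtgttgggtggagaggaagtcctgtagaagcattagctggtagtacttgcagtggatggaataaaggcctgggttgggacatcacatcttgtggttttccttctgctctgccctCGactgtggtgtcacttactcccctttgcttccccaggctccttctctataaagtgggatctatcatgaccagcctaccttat

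ANO2 start at 5945259: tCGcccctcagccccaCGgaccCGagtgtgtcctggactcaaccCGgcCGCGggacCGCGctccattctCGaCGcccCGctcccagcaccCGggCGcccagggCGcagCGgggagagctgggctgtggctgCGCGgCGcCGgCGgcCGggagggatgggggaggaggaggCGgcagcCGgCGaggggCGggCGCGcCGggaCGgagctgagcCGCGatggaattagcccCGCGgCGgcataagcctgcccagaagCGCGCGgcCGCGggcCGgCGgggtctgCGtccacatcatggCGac

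The upstream window held 1 CpG and 46.3% G or C. The letters TATAAA were present on its printed strand, but only within the 50 bases after the start. The downstream window held 43 CpG and 77.3% G or C, without TATAAA on either strand. Among 35116 RefSeq promoter windows of this length the median was 14 CpG and 58.7% G or C, and 11.5% held TATAAA anywhere on either strand. The downstream window had more CpG than 95.02% of these windows and the upstream window more than 3.96% of them. These starts lie 2.56 and 3.53 kb from the listed 5′ end of ANO2, so neither window covers that end. Counts per gene cannot tell which start, shown here or not, the lower ANO2 level belongs to. Of the other members, 7 had a window in the same table, and ANO8 and ANO9 had none.

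The gene next to the listed 5′ end of ANO2 is VWF, which encodes von Willebrand factor, a clotting protein of endothelium and platelets. It lies on the same strand at chr12:5948877-6124670, 87 bases from ANO2. VWF had 15, 9 and 11 counts in IR+NC-LV against 1, 6 and 6 in IR+PR-LV. Every IR+PR-LV library was below every IR+NC-LV library, and the group sums of 35 and 13 counts gave a ratio of 0.296 relative to the total counts (exact 95% binomial interval 0.144 to 0.574, counting error only), but VWF had too few counts to enter the test. On the other side, the neurotrophin gene NTF3 (chr12:5432108-5495299), 64.9 kb away, had 2 counts in IR+NC-LV against 0 in IR+PR-LV. PECAM1, another endothelial marker, had 21 counts in IR+NC-LV against 31 in IR+PR-LV, while CDH5 had 1 and 5 and KDR 2 and 1. The summed endothelial markers, VWF among them, were 0.366 to 0.587 TPM in IR+NC-LV against 0.319 to 0.454 TPM in IR+PR-LV.

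ANO2 is best known from olfactory neurons and photoreceptors, and 4 markers of such cells were read beside it. Their summed level was 2.61 to 4.75 TPM in IR+NC-LV against 1.34 to 2.99 TPM in IR+PR-LV, with overlap, most of it from SYP, a synaptic vesicle protein, and OMP, the olfactory marker protein. OMP had 16 counts in IR+NC-LV against 8 in IR+PR-LV, while RBFOX3, a neuronal splicing factor, had 13 and 14. The part of this list in the ANO2 difference was not tested.

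ANO1, the main epithelial calcium-activated chloride channel (chr11:69985907-70189530, plus strand), was barely detected. It had 0, 1 and 0 counts in IR+NC-LV against 1, 1 and 0 in IR+PR-LV, which gives a ratio of 1.60 with an exact 95% binomial interval of 0.0831 to 94.1. At this depth no difference could be detected in either direction.

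ANO6, the scramblase that exposes phosphatidylserine on activated platelets (chr12:45216033-45440404, plus strand), was the most abundant member. It had 4888, 6152 and 4106 counts in IR+NC-LV against 4599, 8440 and 5619 in IR+PR-LV. Per length these were 131.4, 129.4 and 142.8 TPM against 122.0, 133.3 and 138.0 TPM, with means of 134.5 ± 7.26 TPM and 131.1 ± 8.24 TPM (SD, n = 3 each). The groups overlapped, and the log2 fold change of 0.0036 (SE 0.06, edgeR adjusted p = 0.988) had a 95% interval of -0.13 to 0.14, or 0.912 to 1.10 as a fold. Its sign changed with the scaling: it was -0.0075 with upper-quartile scaling and -0.04 with the total count alone.

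ANO10, mutated in a recessive cerebellar ataxia (chr3:43365848-43691594, minus strand), had 860, 1017 and 659 counts in IR+NC-LV against 779, 1282 and 786 in IR+PR-LV. Normalized, these were 51.3, 48.3 and 47.4 CPM against 46.4, 45.8 and 42.7 CPM. The groups were apart but close together, and the log2 fold change of -0.12 (SE 0.07, 95% interval -0.28 to 0.04) did not pass the test (edgeR adjusted p = 0.580).

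ANO9, a less studied member found in epithelia (chr11:417934-442011, minus strand), showed the largest difference after ANO2 among the 6 tested members. It had 257, 281 and 223 counts in IR+NC-LV against 169, 215 and 140 in IR+PR-LV. Normalized, these were 15.3, 13.3 and 16.1 CPM against 10.1, 7.69 and 7.61 CPM. Every IR+PR-LV library lay below every control library, with replicate 1 of IR+PR-LV the nearest to the controls. The mean was 14.9 ± 1.40 CPM (SD, n = 3) in IR+NC-LV against 8.45 ± 1.40 CPM (SD, n = 3) in IR+PR-LV. This is a log2 fold change of -0.82 (SE 0.14, 95% interval -1.14 to -0.50). With an adjusted p of 0.0846 ANO9 missed the threshold in the edgeR test, where it ranked 45 of 15340 genes by p. The call depended on the procedure, since DESeq2 gave -0.81 with an adjusted p of 0.00055 and edgeR without the filter on low counts gave -0.81 with an adjusted p of 0.000262. Those procedures also called far more genes, 168 of 14851 (1.13%) and 342 of 28831 (1.19%). Over the 15 alternatives the adjusted p of ANO9 ran from 0.000262 to 0.313, with IR+PR-LV lower in each.

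ANO8, a tether between the endoplasmic reticulum and the plasma membrane (chr19:17323223-17334855, minus strand), had 146, 197 and 155 counts in IR+NC-LV against 188, 229 and 128 in IR+PR-LV. Per length these were 5.08, 5.37 and 6.98 TPM against 6.46, 4.68 and 4.07 TPM. The groups overlapped, and the log2 fold change was -0.15 (SE 0.19, 95% interval -0.57 to 0.27, edgeR adjusted p = 0.812). ANO8 varied most between libraries of a group among the 6 tested members in both groups, with coefficients of variation in CPM of 13.1% and 24.8%, against 7.83% and 7.64% from counting error. Its log2 fold change was -0.35 without IR+PR-LV replicate 1 and -0.01 without IR+PR-LV replicate 3.

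ANO7, best known from the prostate (chr2:241188551-241239602, plus strand), had 63, 81 and 55 counts in IR+NC-LV against 79, 112 and 65 in IR+PR-LV. Per length these were 2.21, 2.22 and 2.50 TPM against 2.74, 2.31 and 2.08 TPM. The groups overlapped, and the log2 fold change was 0.08 (SE 0.16, 95% interval -0.28 to 0.44, edgeR adjusted p = 0.888), which became -0.03 without IR+PR-LV replicate 1.

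Of the 5 tested members other than ANO2, 0 passed the edgeR threshold, 1 (ANO9) had an unadjusted p under 0.05 and 1 (ANO9) passed with DESeq2. Over all genes tested, 10.5% had an unadjusted p under 0.05, 5.97% with IR+PR-LV lower and 4.55% with it higher. At an adjusted p under 0.10, which 0.378% of the genes passed, ANO9 was among them. The log2 fold change was below 0 for 3 of the 5, and for 48.9% of all genes tested. The groups did not overlap, with IR+PR-LV lower, for ANO9 and ANO10 among these 5, and over all genes tested this held for 9.54%. An exact permutation test of 3 against 3 libraries cannot give a p below 0.1. The plot of each library relative to the control mean shows ANO2 and ANO9 set apart from 0, and ANO8 and ANO7 with IR+PR-LV libraries on both sides of it.

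**Figure D3:**
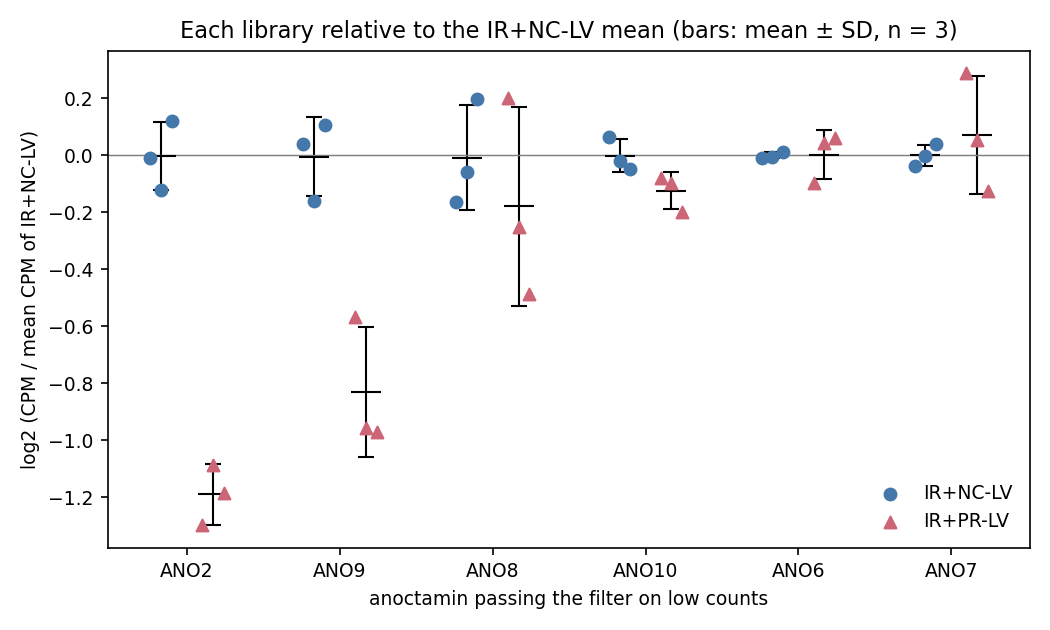
Log2 ratio of each library's CPM to the mean CPM of IR+NC-LV for the 6 anoctamins that passed the filter, with IR+NC-LV as circles, IR+PR-LV as triangles and bars for the mean ± SD (n = 3). The 3 IR+PR-LV libraries lie below all IR+NC-LV libraries for ANO2, ANO9 and ANO10, and the groups overlap for ANO8, ANO6 and ANO7.

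The remaining members had too few counts for the test. ANO4, a mainly neural member (chr12:100717457-101128641, plus strand), had 4, 3 and 2 counts in IR+NC-LV against 3, 8 and 5 in IR+PR-LV, a ratio of 1.42 (exact 95% binomial interval 0.590 to 3.64). Its second listed copy, on an alternate scaffold, had 0 counts throughout. ANO5, mutated in a limb-girdle muscular dystrophy (chr11:22192485-22283357, plus strand), had 1, 3 and 1 counts against 0, 6 and 2, a ratio of 1.28 (0.368 to 4.96). ANO3, mutated in a form of dystonia (chr11:26188808-26667907, plus strand), had 2, 1 and 0 counts in IR+NC-LV against 0 in each IR+PR-LV library, and its ratio could be as high as 1.93 by the same interval. Differences of these sizes were not detectable at this depth. For ANO3, moreover, 8.12% of the exon bases overlap genes on the other strand, SLC5A12 for the most part, and the library kit as named does not mark the strand. Such overlaps covered 1.42% of the exon bases of ANO8, 0.564% of ANO9 and 0.0181% of ANO7, and none of the other members.

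Among the low members, ANO9 and ANO8 changed places between the groups in the order of mean TPM, although their ranges overlapped within each group. The ratio of ANO9 to ANO8 in TPM was 1.58, 1.28 and 1.29 in IR+NC-LV against 0.806, 0.842 and 0.981 in IR+PR-LV, so that ANO9 was above ANO8 in every control library and below it in every IR+PR-LV library. In IR+PR-LV replicate 3 the ratio cannot be told from 1. It rested there on 140 ANO9 and 128 ANO8 counts, with counting errors of 8.45% and 8.84%. The ratio of ANO2 to ANO7 in TPM was 0.694, 0.627 and 0.719 in IR+NC-LV against 0.227, 0.309 and 0.327 in IR+PR-LV. ANO2 thus stayed below ANO7 per length in all 6 libraries, although it had more counts than ANO7 in the control group (322 against 199) and fewer in IR+PR-LV (177 against 256), its listed exons being longer. TPM divides by all listed exon bases of a gene, so a level from short transcripts of a long gene reads low.

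The anoctamins were set beside 4 lists of genes of related function, described by counts and medians. The median log2 fold change over all genes tested was 0.0044. Other chloride channels and related proteins (the LRRC8 volume-regulated channels, CLCN, CLIC and TTYH proteins and others) numbered 32, of which 19 were tested, with a median of 0.0048 and 0 past the edgeR threshold. At an unadjusted p under 0.05, 2 of them were lower and 1 was higher, against 5.97% lower and 4.55% higher over all genes tested. With DESeq2, 0 of the list passed. The lowest p belonged to CLCN6, an endosomal chloride and proton exchanger, at 22.8 TPM in IR+NC-LV against 17.3 TPM in IR+PR-LV (log2 fold change -0.36, SE 0.08, adjusted p = 0.191). The lowest p with a higher level was that of a listed copy of CLIC1, which has 7 listed copies that can share reads and is uncertain. With the copies summed it was 31.5 ± 1.93 TPM (SD, n = 3) against 42.8 ± 11.6 TPM (SD, n = 3), with an adjusted p of 0.391. The most abundant was CLIC4, at 558 ± 22.6 TPM and 578 ± 64.7 TPM (SD, n = 3), with a log2 fold change of 0.09. Some genes of this list, CLIC4 and CLCN6 among them, were thus detected far above ANO2, while CFTR, the cystic fibrosis channel, had 7 counts in all 6 libraries.

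Other phospholipid scramblases and flippases, the enzymes that set the lipid sides of membranes together with ANO6, numbered 22, of which 16 were tested, with a median of 0.06 and 0 past the threshold with edgeR or DESeq2. At an unadjusted p under 0.05, against 4.55% higher and 5.97% lower over all genes tested, 2 were higher and 0 were lower. Among them was TMEM30A, the subunit that flippases need to leave the endoplasmic reticulum (log2 fold change 0.20, adjusted p = 0.406). TMEM30A was also the most abundant of this list, at 367 TPM in IR+NC-LV against 410 TPM in IR+PR-LV. The lowest p with a lower level was that of ATP8B1, at -0.14 (adjusted p = 0.512).

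The TMC and TMEM63 proteins, which share their fold with anoctamins, numbered 11, of which 7 were tested, with a median of -0.04. With edgeR 0 had an adjusted p under 0.05 and 0 an unadjusted one, against 0.0652% and 10.5% of all genes tested. With DESeq2 0 of the list passed, and 1 of them had no adjusted p. TMC5 had the lowest p of the lower ones (-0.49, adjusted p = 0.626) and TMEM63C that of the higher ones (0.09, adjusted p = 0.857). TMEM63B, a channel opened by stretch, was the most abundant at 35.4 TPM and 34.3 TPM.

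Genes of calcium release, entry and sensing numbered 31, of which 26 were tested, with a median of 0.03 and 0 past the threshold with edgeR or DESeq2. At an unadjusted p under 0.05, against 5.97% lower and 4.55% higher over all genes tested, 1 was lower and 1 was higher. PLCB4, a phospholipase C upstream of calcium release, was at 188 TPM in IR+NC-LV against 165 TPM in IR+PR-LV (log2 fold change -0.14, adjusted p = 0.414). CALM3, a gene for the calcium sensor calmodulin, was at 308 TPM and 334 TPM (0.16, adjusted p = 0.466), and CALM2, another, was the most abundant at 426 TPM and 463 TPM. The plot of the lists shows ANO2 and ANO9 below every tested gene of the other lists. Since the family was chosen by the fall of ANO2, its low place there is a description only.

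**Figure D4:**
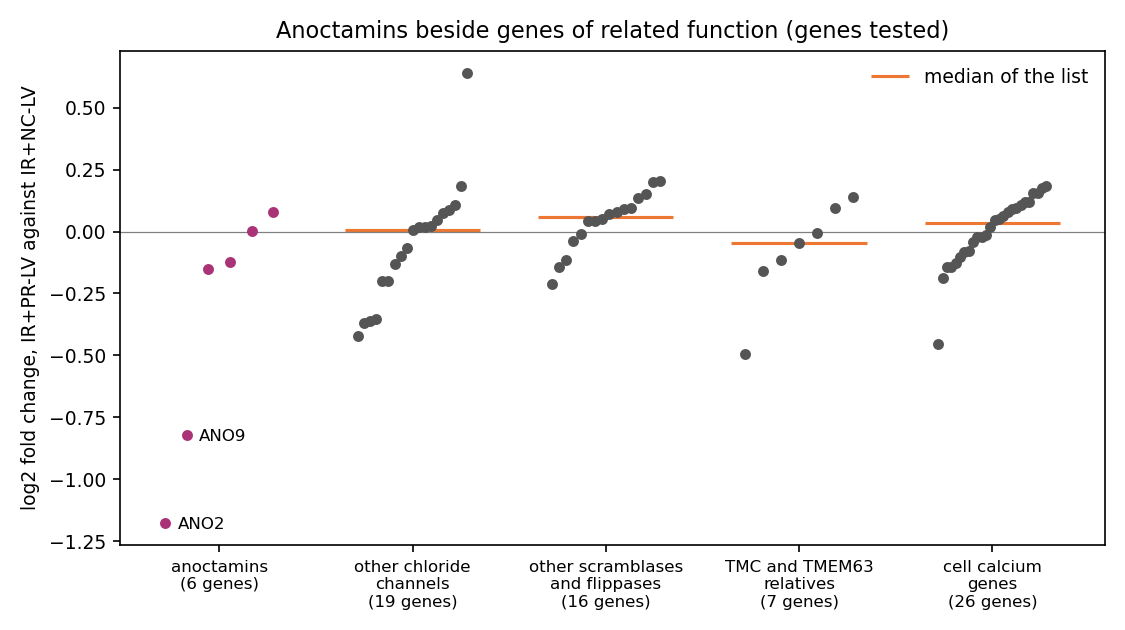
Log2 fold change of IR+PR-LV against IR+NC-LV for each tested gene, in rank order within the anoctamins (6 genes) and the lists of other chloride channels (19), other scramblases and flippases (16), TMC and TMEM63 relatives (7) and cell calcium genes (26), with the median of each other list as a horizontal line. The medians lie between -0.04 and 0.06, while ANO2, by which the family was chosen, lies at -1.18 and ANO9 at -0.82.

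The genes whose pattern over the 6 libraries was most like that of ANO2 were found among 13967 tested genes with a mean of at least 1 CPM, by Pearson's r in log2 CPM. The highest were SHISA9 and NPHS1, both at 0.996, LOC107984475 and LINC02605, both at 0.995, and MTMR10 at 0.994. NPHS1 encodes nephrin of the podocyte slit diaphragm, and was at 1.79 CPM in IR+NC-LV against 0.648 CPM in IR+PR-LV. SHISA9, an accessory protein of glutamate receptors, was at 42.7 CPM and 31.9 CPM. Among the lowest were P3H2 at -0.996, ELOVL6 at -0.992, and ICMT and HSPA4, both at -0.988, among which HSPA4, a chaperone, was at 422 CPM in IR+NC-LV against 476 CPM in IR+PR-LV. With 2 separate groups of 3 libraries these coefficients follow the difference between the groups, and they are a description only.

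Among markers of other cell types, the summed level of 4 leukocyte markers was 181 to 199 TPM in IR+NC-LV against 154 to 169 TPM in IR+PR-LV, apart and lower. Nearly all of it was CD68, a lysosomal protein (log2 fold change -0.22, edgeR adjusted p = 0.405). The defining markers PTPRC and CD3E had 10 and 2 counts in all 6 libraries. Over all genes tested, 9.54% were apart in CPM with IR+PR-LV lower. The fibroblast markers were at 129 to 136 TPM and 105 to 149 TPM, mostly LUM, the proximal tubule markers at 79.6 to 82.9 TPM and 62.4 to 80.9 TPM, and 4 markers of other tubule segments at 0.136 to 0.141 TPM and 0.0928 to 0.201 TPM. The part of these lists in the differences of ANO2 and ANO9 was not tested.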

How the data were processed

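Poly(A) RNA of 6 HK-2 libraries was sequenced from both ends. The authors deposited read counts per gene without normalization, with TPM and FPKM values beside them. The deposited TPM is the count over the listed exon length, rescaled, and was used only to compare levels between genes; the deposited FPKM was not used further. The submitters' processing notes name featureCounts 2.0.1, DESeq2 1.16.1 and build hg38. The aligner, the annotation and the strand setting are not given in the sources used here.

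Counts were compared with edgeR 4.0.16 in R 4.3.3 (filterByExpr with 10 as minimum count and 15 as minimum total, TMM factors of 0.981 to 1.04, quasi-likelihood test without covariates, Benjamini-Hochberg adjustment over 15340 genes, threshold 0.05). CPM values are TMM-normalized, with a prior count of 2 on the log2 scale. The procedure was tested on simulated data. Ratios of low counts have exact 95% binomial intervals over the total counts. Such intervals and limits hold for counting error alone, because PCR copies could not be told from separate molecules.

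Named genes were the 10 members, PRDM16, the genes next to ANO2, of each list the lowest p in each direction and the highest TPM, and the 5 highest and 5 lowest correlations with ANO2. Some genes this rule names are not reported here. CFTR, NPHS1, SHISA9 and HSPA4 were singled out after their values were seen. The members and lists were chosen with earlier results of these data known. Alternatives were RLE and upper-quartile scaling, total counts, DESeq2 1.42.0, 2 other filters, leaving out each library, the replicate number as a block, thinning to the smallest library, summed gene copies, thresholds of 0.01 and 0.10 and, for the levels, CPM per kilobase.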

Additional observations from a re-analysis of the deposited data

How the results depend on the processing

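ANO2 kept its direction under all 15 alternatives, with log2 fold changes of -1.24 to -1.11. These reuse the counts by which ANO2 chose the family, so they are a description only. The order of the 6 tested levels did not change with CPM per kilobase or with any library left out. The genes past the threshold were 10, and became 342 without the filter, 168 with DESeq2, 1 at an adjusted p under 0.01 and 58 at one under 0.10. With 1 library left out they numbered 1 to 28 (1 each without IR+NC-LV replicate 1 and without IR+PR-LV replicate 3, 28 without IR+NC-LV replicate 2, 16 without IR+NC-LV replicate 3). Anoctamins other than ANO2 past the threshold went from 0 to 1, always ANO9, without the filter, with DESeq2 and at 0.10. ANO9 was called without the filter (-0.81, adjusted p = 0.000262) and with DESeq2 (-0.81, adjusted p = 0.00055), and stayed between -0.96 and -0.75 with a library left out (adjusted p 0.0602 to 0.313); the cause was not tested. ANO6, near 0, changed sign with upper-quartile scaling (-0.0075), total counts (-0.038) and thinning (-0.017), and ranged from -0.025 to 0.052 with a library left out. ANO7 ranged from -0.025, without IR+PR-LV replicate 1, to 0.17, ANO8 from -0.35 to -0.01 and ANO10 from -0.14 to -0.09.

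Same-numbered libraries showed little joint deviation (r of -0.0088 to 0.0706), and not every library correlated best with its own number. With 3 libraries per group these values cannot settle whether the numbers pair the samples. With the replicate number as a block 3 genes passed the threshold, and ANO9 was at -0.82 with an adjusted p of 0.106. The low members ANO1, ANO3, ANO4 and ANO5 were limited by depth, since 3 counts over all 6 libraries correspond to 0.0260 CPM.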
